A study of Mus musculus with 11 samples.

Results

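The genes described here are 10 markers of astrocytes and radial glia, the glial stem cells of the developing brain. They are Slc1a3, Slc1a2, Fabp7, Aqp4, Aldh1l1, Agt, Apoe, Gja1, Hopx and Clu, taken by name as a marker list, with no threshold on a measured value but with earlier results of these data known. All 10 of 10 were among the 38406 genes of the count table, had at least 1 count in each of the 11 libraries, and were among the 15228 genes that passed a low-count filter. Expression was measured by 3′ mRNA sequencing of cerebellar medulloblastomas from CD1 mice. The MYC-Gfi1 tumours (n = 2) and the MYC-Otx2 tumours (n = 3) expressed their oncogene pair with no restriction to a cell type, and the series presents both as earlier models of Group 3 medulloblastoma. In a further group (n = 3), called S100b-cell tumours here, MYC and Gfi1 were placed in cells positive for S100b. The last group (n = 3), called N1ICD tumours here, had MYC, Gfi1 and the intracellular domain of the receptor Notch1 in cells positive for Math1, a mark of granule neuron progenitors. MYC was thus part of every group and there was no normal cerebellum or other tumour-free control among the 11 libraries. The labels give no age and leave unstated whether each library is from its own animal, so p-values measure the spread between libraries.

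Astrocytes clear glutamate from synapses, buffer water and ions at the vessel wall, form a network coupled by gap junctions and supply lipoproteins to neurons. In the cerebellum the Bergmann glia, which keep features of radial glia, are the main cells that take up glutamate around Purkinje cells. S100b is a calcium-binding protein of such glia, and Notch signalling, which acts in the nucleus through the DNA-binding protein RBPJ, is known to maintain radial glia. The 10 genes fall into 4 roles. Slc1a3 and Slc1a2 encode the glial glutamate transporters GLAST and GLT-1. Fabp7, a brain fatty acid binding protein, and Hopx, an atypical homeodomain protein, are used as markers of radial glia. Aqp4 encodes the water channel of astrocyte end-feet and Gja1 the gap junction protein connexin 43. Apoe and Clu encode secreted apolipoproteins, Agt encodes angiotensinogen, and Aldh1l1 encodes a folate enzyme used as a pan-astrocyte marker.

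Sequence before a RefSeq start of 3 of the genes is shown because their levels carry the main contrasts below: Slc1a2 and Slc1a3 encode sister transporters, of which 1 was the second lowest and the other the highest of 11 libraries in the same N1ICD library, and Fabp7 had the largest fitted difference. The sequences are from RefSeq (GRCm38.p6), run 5′ to 3′ on the strand of the gene and stop before the first annotated exon in the window. Capitals mark matches on either strand to TGGGAA, the core of the RBPJ motif, or to TTCNNNGAA, the STAT motif.
Slc1a3, chr15:8710808-8711057, minus strand: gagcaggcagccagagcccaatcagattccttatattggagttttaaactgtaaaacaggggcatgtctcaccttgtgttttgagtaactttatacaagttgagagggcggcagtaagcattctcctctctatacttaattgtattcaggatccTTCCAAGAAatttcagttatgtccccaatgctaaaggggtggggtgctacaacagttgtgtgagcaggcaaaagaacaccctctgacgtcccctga
Slc1a2, chr2:102706188-102706355, plus strand: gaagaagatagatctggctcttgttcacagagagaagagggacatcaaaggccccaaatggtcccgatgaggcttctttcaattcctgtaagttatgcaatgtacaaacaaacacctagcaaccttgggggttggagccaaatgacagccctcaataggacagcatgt
Fabp7, chr10:57784673-57784880, plus strand: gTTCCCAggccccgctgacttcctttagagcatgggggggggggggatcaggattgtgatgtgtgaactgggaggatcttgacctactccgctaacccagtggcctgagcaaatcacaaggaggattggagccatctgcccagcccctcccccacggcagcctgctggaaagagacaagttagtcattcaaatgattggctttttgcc
The RBPJ letters lay 249 bases before the RefSeq start of Fabp7, on the opposite strand, and the STAT letters 96 bases before that of Slc1a3. The Slc1a2 stretch held neither. It lies inside the annotated gene, before the start of a shorter transcript, and is not the sequence upstream of the whole gene. Windows of 250 bases before a RefSeq start were used for 8 of the 10 genes, without Aqp4 and Clu. RBPJ letters were in those of 2 genes, Fabp7 and Aldh1l1, against 21.6% of the 32851 promoter windows in the table. STAT letters were in those of 2 genes, Slc1a3 and Agt, against 7.02%, and the SOX letters AACAAT in that of 1 gene, Hopx, against 9.42%. A gene was counted when any of its windows matched, and Apoe and Hopx had more than 1, whereas the percentages count single windows. The Aldh1l1 window and the Hopx window with the SOX letters also lie inside the annotated gene. The motifs searched did not overlap one another in these windows. A match describes letters and is not evidence of binding.

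Total counts ran from 2.58 to 15.19 M per library. They were lowest in the N1ICD tumours (2.58 to 3.38 M) and highest in the S100b-cell tumours (12.77 to 15.19 M). Levels are given as CPM, counts scaled to a common library size by the TMM-adjusted totals, and compare one gene between libraries, not one gene with another. Mitochondrially encoded genes took 5.18% to 6.00% of counts in the MYC-Gfi1 and MYC-Otx2 libraries, 14.7% to 18.5% in the S100b-cell libraries and 23.2% to 27.6% in the N1ICD libraries. Library set and tumour group cannot be told apart for the S100b-cell and N1ICD tumours. A pair of libraries stood apart in glial or neuronal genes. N1ICD replicate 1 had the highest summed CPM of the 10 genes (12087, against 312 to 2819 elsewhere), of choroid plexus genes (5467 over 11 genes, none at 0, against 13.6 to 832) and of ependymal genes (122 over 8 genes, 2 at 0, against 1.39 to 25.6). MYC-Gfi1 replicate 2 had the highest summed CPM of 12 mature granule neuron genes (5297, against 14.3 to 643 elsewhere) and of 32 other astrocyte genes (9637). Comparisons of the 10 genes are therefore also given without them where that matters. In bulk tumour RNA, fewer cells of a type and less RNA per cell cannot be told apart.

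Across the 11 libraries the 10 genes were dominated by 1 library. N1ICD replicate 1 was the highest library for 9 of the 10 genes, whereas 13.5% of all genes tested had their highest level there. The exception was Slc1a2, which in that library was at 4.29 CPM, the second lowest of the 11. Within the N1ICD group the highest library exceeded the lowest by a median of 34.5-fold over the 10 genes, against 2.03-fold over the genes tested that had no 0 in the group. The same median was 6.53-fold in the S100b-cell, 2.66-fold in the MYC-Otx2 and 2.26-fold in the MYC-Gfi1 tumours, against 1.60-fold, 1.61-fold and 1.81-fold for such genes at large. The group means of these genes thus describe unlike libraries, most of all in the N1ICD tumours.

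**Figure D1:**
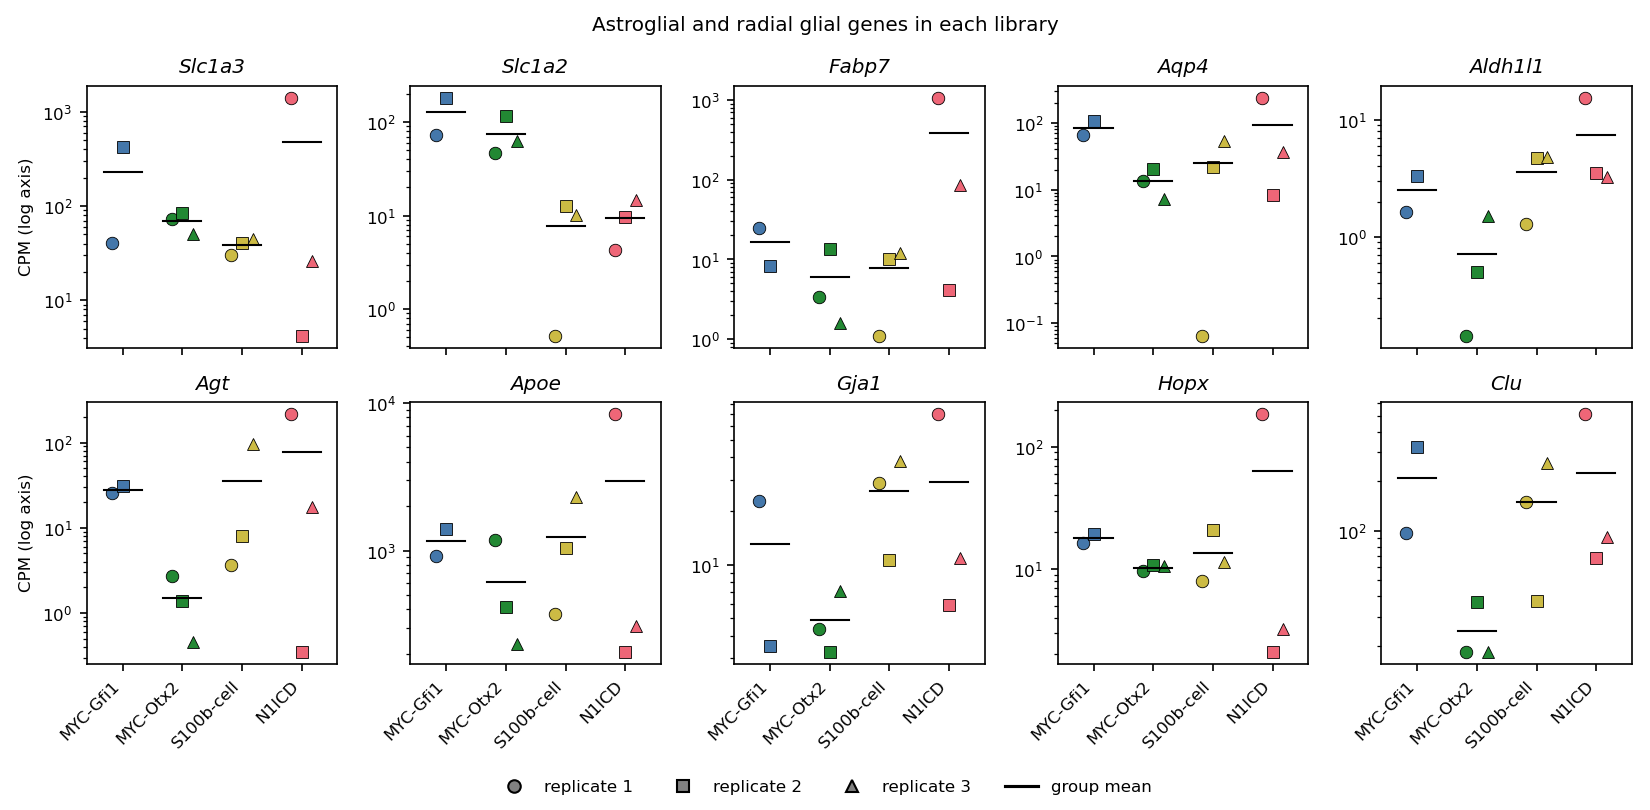
Level of each of the 10 genes in each library, in CPM on a log axis, with libraries as points by group and replicate and the group mean as a bar. N1ICD replicate 1 (circle) is the highest point in 9 panels, from 15.4 CPM for Aldh1l1 to 8390 CPM for Apoe, while Slc1a2 is low in all S100b-cell and N1ICD libraries.

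Differences between groups were tested with edgeR across all 15228 genes, and a gene is called at a Benjamini-Hochberg adjusted p below 0.05. The N1ICD tumours differed from the MYC-Otx2 tumours in 4 of the 10 genes, 3 higher (Fabp7, Aldh1l1 and Clu) and 1 lower (Slc1a2). At large, 21.8% of genes were called in that comparison, 12% higher and 9.76% lower. Without N1ICD replicate 1 none of these 4 genes was called, and Hopx was the 1 gene called, lower. The count of 4 was 0 without MYC-Otx2 replicate 1 or 2, 1 without MYC-Otx2 replicate 3 or S100b-cell replicate 2, and 2 without S100b-cell replicate 3. Against the MYC-Gfi1 tumours 1 gene, Slc1a2, was lower in the N1ICD tumours, where 11.5% of all genes were called and 6.05% were called lower. The S100b-cell tumours differed from the MYC-Otx2 tumours in 1 gene, again Slc1a2, which was lower, where 17.9% of all genes were called and 7.89% were called lower. No gene of the 10 was called between S100b-cell and MYC-Gfi1 tumours (4.35% of all genes), between MYC-Otx2 and MYC-Gfi1 tumours (5.46%) or between N1ICD and S100b-cell tumours (1.21%). At an unadjusted edgeR p below 0.05 these 3 comparisons had 1, 2 and 2 of the 10 genes, against 23.7%, 28.3% and 18.7% of all genes. DESeq2 called 1, 2 and 1 of the 10, against 13.6%, 15.5% and 8.46% of the genes it tested. Comparisons that share a group share its libraries and are not independent of each other.

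The median log2 fold change of the 10 genes was 2.78 for N1ICD minus MYC-Otx2 tumours, against 0.14 for all genes tested. It was 1.24 against -0.01 for N1ICD minus MYC-Gfi1 and 1.20 against -0.06 for N1ICD minus S100b-cell. It was 0.95 against 0.17 for S100b-cell minus MYC-Otx2, -0.46 against 0.01 for S100b-cell minus MYC-Gfi1 and -1.58 against -0.14 for MYC-Otx2 minus MYC-Gfi1. The N1ICD medians rested on replicate 1. Without that library they were 0.74 against MYC-Otx2, -1.80 against MYC-Gfi1 and -1.13 against S100b-cell, so that 2 of the 3 changed sign. The N1ICD minus S100b-cell median was also 0.77 without S100b-cell replicate 1 and 2.11 without replicate 3. The S100b-cell minus MYC-Gfi1 median was 0.064 without MYC-Gfi1 replicate 2 and -1.35 without S100b-cell replicate 3. The S100b-cell minus MYC-Otx2 median was 0.35 without S100b-cell replicate 3, 0.60 without MYC-Otx2 replicate 3 and 1.46 without MYC-Otx2 replicate 2. The MYC-Otx2 minus MYC-Gfi1 median stayed between -1.72 and -1.56 with any 1 library left out.

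**Figure D2:**
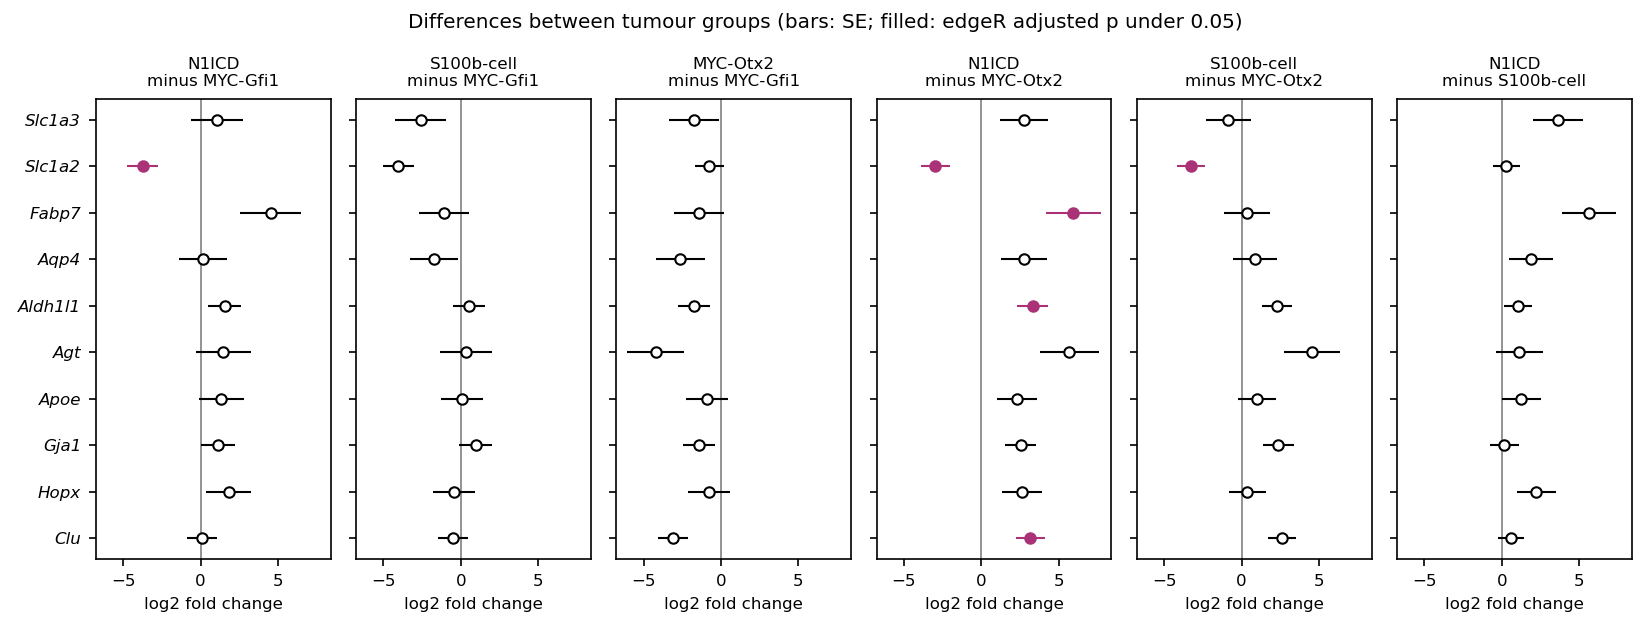
Fitted log2 fold change of each gene in the 6 comparisons, first group minus second, with bars of 1 SE and filled points for an edgeR adjusted p below 0.05. Slc1a2 lies left of 0 where N1ICD or S100b-cell tumours are set against either other group, and Fabp7, Aldh1l1 and Clu are the filled points on the right, all in N1ICD minus MYC-Otx2.

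Slc1a2 (chromosome 2, 102658659 to 102790784, mm10), the main astrocytic glutamate transporter of the adult brain, separated the groups into a higher and a lower pair. It was at 73.6 and 181 CPM in the MYC-Gfi1 tumours and at 46.3, 116 and 62.9 CPM in the MYC-Otx2 tumours. It was at 0.518, 12.7 and 10.2 CPM in the S100b-cell tumours and at 4.29, 9.76 and 14.6 CPM in the N1ICD tumours. Every S100b-cell and N1ICD library lay below every library of the other pair, and within each pair the libraries overlapped. Mitochondrially encoded genes also took a larger share of counts in the lower pair. Library set and tumour group thus cannot be told apart in this split. Group means were 127 ± 76.3 CPM (SD, n = 2) for MYC-Gfi1, 75.1 ± 36.4 CPM for MYC-Otx2, 9.55 ± 5.16 CPM for N1ICD and 7.80 ± 6.44 CPM for S100b-cell tumours (SD, n = 3 each).

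Set against the MYC-Gfi1 tumours, Slc1a2 was 13.3-fold lower in the N1ICD tumours (log2 fold change -3.73 ± 1.00, SE, edgeR adjusted p = 0.0407). Set against the MYC-Otx2 tumours it was 7.84-fold lower (-2.97 ± 0.93, edgeR adjusted p = 0.0462). In the S100b-cell tumours it was 9.62-fold lower than in MYC-Otx2 (-3.27 ± 0.92, edgeR adjusted p = 0.0368). The largest fitted difference, -4.03 ± 0.99 or 16.3-fold for S100b-cell minus MYC-Gfi1, lay at an edgeR adjusted p of 0.05003, on the far side of the threshold. Between N1ICD and S100b-cell tumours the log2 difference was 0.30, with a 95% interval from -1.68 to 2.27 (edgeR adjusted p = 0.892). The direction of the 4 larger differences was the same in all 21 alternative settings, with log2 values from -4.88 to -2.51. Their calls were less firm. The call against MYC-Gfi1 in the N1ICD tumours was lost without any 1 library other than MYC-Gfi1 replicate 1 and S100b-cell replicate 1 (edgeR adjusted p from 0.0524 to 0.156). The call against MYC-Otx2 in the N1ICD tumours was lost without any 1 library other than MYC-Gfi1 replicate 2 and S100b-cell replicate 1 (edgeR adjusted p from 0.0501 to 0.120). The call in the S100b-cell tumours was lost without any 1 MYC-Otx2 library or without S100b-cell replicate 2 or 3 (edgeR adjusted p from 0.0625 to 0.101).

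Slc1a3 (chromosome 15, 8634124 to 8710764), the transporter most abundant in Bergmann glia and kept by radial glia, did not follow its sister. It was at 40.3 and 422 CPM in the MYC-Gfi1 tumours and at 73.6, 83.8 and 50.7 CPM in the MYC-Otx2 tumours. It was at 30.1, 40.5 and 44.3 CPM in the S100b-cell tumours and at 1402, 4.18 and 26.0 CPM in the N1ICD tumours. The N1ICD group held both the highest and the lowest library of all 11, 335-fold apart. The S100b-cell libraries were close together and lay below the 3 MYC-Otx2 libraries, but the difference did not pass the test (log2 change -0.86 ± 1.47, SE, edgeR adjusted p = 0.714). N1ICD minus S100b-cell gave 3.64 ± 1.61 (edgeR adjusted p = 0.261), which turned to -1.35 without N1ICD replicate 1. N1ICD minus MYC-Gfi1 gave 1.05 ± 1.68 (edgeR adjusted p = 0.711) and turned to -3.95 without that library (edgeR adjusted p = 0.0468). S100b-cell minus MYC-Gfi1 gave -2.59 ± 1.63 (edgeR adjusted p = 0.368), and -0.07 when MYC-Gfi1 replicate 2, high in neuronal genes, was left out. Over the 6 comparisons edgeR adjusted p-values for Slc1a3 ran from 0.220 to 0.714.

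Of the 10 other genes of glutamate transport and the glutamine cycle, Slc1a4 was called in every comparison with the N1ICD tumours. This gene, for a neutral amino acid transporter of the same family, was at 291, 138 and 216 CPM in the N1ICD tumours and at 18.8 to 26.7 CPM in the other 8 libraries. It was higher by a log2 change of 3.39 ± 0.34 than in MYC-Gfi1, 3.10 ± 0.28 than in MYC-Otx2 and 3.34 ± 0.28 than in S100b-cell tumours (SE, edgeR adjusted p = 0.00217, 0.000446 and 0.00109), and these calls held without N1ICD replicate 1. Slc1a5, the glutamine carrier, was at 386 to 420 CPM in the MYC-Otx2 tumours against 88.6 and 59.3 CPM in the MYC-Gfi1 tumours (log2 change 2.44 ± 0.50, SE, edgeR adjusted p = 0.0294). Slc38a1, a neuronal glutamine carrier, was lower in MYC-Otx2 than in MYC-Gfi1 tumours (-2.76 ± 0.64, edgeR adjusted p = 0.0404). The Slc1a5 call was lost without MYC-Gfi1 replicate 2 or any 1 MYC-Otx2 library (edgeR adjusted p from 0.0640 to 0.125). The Slc38a1 call was lost without either MYC-Gfi1 library, MYC-Otx2 replicate 1 or 3, S100b-cell replicate 2 or 3, or N1ICD replicate 3 (edgeR adjusted p from 0.0532 to 0.125). Glul, which makes glutamine from glutamate in astrocytes, was at 56.1 to 679 CPM and was not called in any comparison. In N1ICD minus MYC-Otx2, 2 of the 10 were called higher and 1 lower, with a median of -0.07. Over all genes tested, 12% were called higher and 9.76% lower, with a median of 0.14.

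Fabp7 (chromosome 10, 57784881 to 57788450) showed the largest fitted differences of the 10 genes. It was at 24.6 and 8.28 CPM in the MYC-Gfi1 tumours and at 3.39, 13.3 and 1.62 CPM in the MYC-Otx2 tumours. It was at 1.10, 10.2 and 11.9 CPM in the S100b-cell tumours and at 1058, 4.18 and 86.8 CPM in the N1ICD tumours. N1ICD replicates 1 and 3 lay above all 8 libraries of the other groups, while replicate 2 lay among the MYC-Otx2 and S100b-cell libraries. The difference from MYC-Otx2 tumours was called, at a log2 fold change of 5.97 ± 1.77 (SE, edgeR adjusted p = 0.0383). Without N1ICD replicate 1 it was 2.89 (edgeR adjusted p = 0.156), and the call was also lost without any 1 MYC-Otx2 library or without S100b-cell replicate 2 or 3 (edgeR adjusted p from 0.0539 to 0.119). Against S100b-cell and MYC-Gfi1 tumours the differences of 5.63 ± 1.73 and 4.54 ± 1.96 did not pass (edgeR adjusted p = 0.133 and 0.152), and they were 2.56 and 1.46 without N1ICD replicate 1.

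Hopx (chromosome 5, 77086988 to 77115121) was even between the MYC-Otx2 libraries, at 9.61, 10.7 and 10.5 CPM, and was at 16.4 and 19.5 CPM in the MYC-Gfi1 tumours. Its level was 7.96, 20.9 and 11.4 CPM in the S100b-cell tumours and 185, 2.09 and 3.25 CPM in the N1ICD tumours. Replicate 1 of the N1ICD group was 8.85-fold above the next highest library, and the other 2 N1ICD libraries, at 6 and 8 counts, were the lowest of all 11. The fitted N1ICD differences of 2.62 ± 1.29 against MYC-Otx2, 2.24 ± 1.27 against S100b-cell and 1.82 ± 1.45 against MYC-Gfi1 tumours did not pass (SE, edgeR adjusted p = 0.170, 0.379 and 0.434). Without N1ICD replicate 1 they turned to -1.94, -2.33 and -2.75, with edgeR adjusted p-values of 0.0323, 0.0636 and 0.0182. The group name thus stood for opposite levels of Hopx in different libraries.

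Among the 23 other radial and Bergmann glial genes tested, 5 were called higher and 1 lower in N1ICD than in MYC-Otx2 tumours, with a median of 1.87. Over all genes tested, 12% were called higher and 9.76% lower, with a median of 0.14. The list summed to 6489, 1483 and 2317 CPM in the N1ICD tumours and to 1672 to 2507 CPM in the MYC-Otx2 tumours. Its median is not given here without N1ICD replicate 1. Vim, an intermediate filament protein of radial glia, was at 208, 304 and 694 CPM in the N1ICD tumours against 8.19 to 23.3 CPM in the MYC-Otx2 tumours (log2 change 4.48 ± 0.66, SE, edgeR adjusted p = 0.00253). Nes, the filament protein nestin, was at 176, 35.6 and 77.5 CPM against 0.565 to 4.24 CPM (5.35 ± 0.96, edgeR adjusted p = 0.00552). Both calls held whichever 1 library was left out. Of 8 pericyte and smooth muscle genes, 7 were also called higher in N1ICD than in MYC-Otx2 tumours, against 12% of all genes. They summed to 324, 6660 and 2738 CPM in the N1ICD tumours and to at most 219 CPM in the other 8 libraries. The part of these genes' cells in the Vim and Nes levels was not tested. Hes5, a direct Notch target, was at 1399, 3.14 and 385 CPM in the N1ICD tumours and at 7.84 to 22.5 CPM in the other 8 libraries (5.08 ± 1.41 against MYC-Otx2, edgeR adjusted p = 0.0309). The Hes5 call was lost without N1ICD replicate 1 or any 1 MYC-Otx2 library (edgeR adjusted p from 0.0830 to 0.09996). Tnc, an extracellular matrix protein of radial glia, was at 530, 6.62 and 41.0 CPM in the N1ICD tumours against 2.26 to 5.89 CPM in the MYC-Otx2 tumours, and its call was lost without the same libraries. Sept4, a septin of Bergmann glia, was the fifth gene called higher, and that call was lost without any 1 MYC-Otx2 library or N1ICD replicate 2 or 3 (edgeR adjusted p from 0.0556 to 0.107). Prom1, the membrane protein prominin, was the gene called lower (-1.98 ± 0.56, edgeR adjusted p = 0.0324), a call lost without any 1 N1ICD library or MYC-Otx2 replicate 2 or 3 (edgeR adjusted p from 0.0526 to 0.112). In N1ICD minus MYC-Gfi1 the list had 2 called higher (Tnc and Vim) and 1 lower (Prom1), against 11.5% of all genes called. In S100b-cell minus MYC-Otx2 it had 1 and 1 (Vim and Prom1), against 17.9% of all genes called. It had none in the other 3 comparisons. Against MYC-Gfi1 the Tnc call was lost without any 1 library but N1ICD replicate 2 (edgeR adjusted p from 0.0560 to 0.155), the Prom1 call without any 1 but MYC-Gfi1 replicate 1 (0.0572 to 0.413) and the Vim call without MYC-Gfi1 replicate 2 (0.0924). In S100b-cell minus MYC-Otx2 the calls of Vim and Prom1 were each lost without any 1 library of those groups (edgeR adjusted p from 0.0559 to 0.129). Fabp5, for another fatty acid binding protein, was at 39.4 to 225 CPM and was not called in any comparison.

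Aqp4 (chromosome 18, 15389496 to 15410982) was at 64.8 and 105 CPM in the MYC-Gfi1 tumours and at 13.3, 20.4 and 7.28 CPM in the MYC-Otx2 tumours. It was at 0.0647, 21.7 and 54.0 CPM in the S100b-cell tumours, the first from 1 count, and at 236, 8.37 and 36.5 CPM in the N1ICD tumours. Both MYC-Gfi1 libraries lay above all MYC-Otx2 and all S100b-cell libraries. The differences of -2.63 ± 1.57 and -1.75 ± 1.54 did not pass the test (SE, edgeR adjusted p = 0.291 and 0.532). N1ICD minus MYC-Otx2 gave 2.77 ± 1.495 (edgeR adjusted p = 0.205), and 0.71 without N1ICD replicate 1.

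Gja1 (chromosome 10, 56377330 to 56402513) was at 22.7 and 3.49 CPM in the MYC-Gfi1 tumours and at 4.38, 3.24 and 7.16 CPM in the MYC-Otx2 tumours. It was at 28.7, 10.6 and 38.2 CPM in the S100b-cell tumours and at 69.9, 5.93 and 10.96 CPM in the N1ICD tumours. All S100b-cell libraries lay above all MYC-Otx2 libraries, but the difference of 2.39 ± 0.98 did not pass (SE, edgeR adjusted p = 0.114). It passed without N1ICD replicate 1, which is in neither group but enters the shared estimate of spread (edgeR adjusted p = 0.0464). N1ICD minus MYC-Otx2 gave 2.54 ± 0.99 (edgeR adjusted p = 0.0912) and 0.77 without that library.

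Some partner genes of these membrane proteins were called where Aqp4 and Gja1 were not. Dag1, the dystroglycan that anchors the aquaporin complex at end-feet, was at 166, 127 and 69.8 CPM in the N1ICD tumours and at 15.3 to 34.5 CPM in the other 8 libraries. It was higher by a log2 change of 2.42 ± 0.34 than in MYC-Otx2 and 2.31 ± 0.40 than in MYC-Gfi1 tumours (SE, edgeR adjusted p = 0.00203 and 0.0103), with or without N1ICD replicate 1. It was 1 of 2 called genes of the 8 tested on the end-foot list in N1ICD minus MYC-Otx2, the other being Aqp11, an intracellular aquaporin, which was lower (-2.22 ± 0.45, edgeR adjusted p = 0.00898). Gjc1, the gap junction protein connexin 45 of vascular smooth muscle, was at 121, 460 and 298 CPM in the N1ICD tumours and at no more than 3.21 CPM elsewhere (8.02 ± 1.01 against MYC-Otx2, edgeR adjusted p = 0.00134). The part of the pericyte and smooth muscle genes given above in the Gjc1 level was not tested. In that comparison 4 of 9 gap junction genes were called higher and 1, Panx1, lower, where 12% of all genes were called higher and 9.76% lower.

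Apoe (chromosome 7, 19696109 to 19699188) made up 51.6% to 87.3% of the summed CPM of the 10 genes in each library. It was at 924 and 1394 CPM in the MYC-Gfi1 tumours and at 1180, 412 and 232 CPM in the MYC-Otx2 tumours. It was at 369, 1038 and 2291 CPM in the S100b-cell tumours and at 8390, 205 and 309 CPM in the N1ICD tumours. The libraries overlapped in all 6 comparisons and none passed, with edgeR adjusted p-values from 0.222 to 0.981. N1ICD minus MYC-Otx2 gave 2.29 ± 1.29 and N1ICD minus MYC-Gfi1 1.36 ± 1.44 (SE, edgeR adjusted p = 0.222 and 0.559). Both turned negative without N1ICD replicate 1, to -1.24 and -2.17. Microglia also express Apoe, and 12 microglial genes summed to 235 CPM in N1ICD replicate 1, 445 and 378 CPM in the other N1ICD libraries and 178 to 1375 CPM in the other groups. The part of microglia in the Apoe levels was not tested.

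Clu (chromosome 14, 65968483 to 65981547), which encodes clusterin, was lowest in the MYC-Otx2 tumours, at 18.4, 37.0 and 18.4 CPM. It was at 97.1 and 323 CPM in the MYC-Gfi1, at 151, 37.8 and 259 CPM in the S100b-cell and at 511, 68.0 and 91.3 CPM in the N1ICD tumours. Every library of those 3 groups lay above every MYC-Otx2 library. The N1ICD difference was called (3.18 ± 0.93, SE, edgeR adjusted p = 0.0369), and the S100b-cell difference of 2.60 ± 0.91 and the MYC-Gfi1 difference, -3.10 ± 0.98 for MYC-Otx2 minus MYC-Gfi1, were not (edgeR adjusted p = 0.0734 and 0.0836). Without N1ICD replicate 1 the first fell to 1.70 and lost its call (edgeR adjusted p = 0.139), while the other 2 passed (edgeR adjusted p = 0.0303 and 0.0391). The N1ICD call was also lost without any 1 MYC-Otx2 library or S100b-cell replicate 1 (edgeR adjusted p from 0.0507 to 0.114).

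Agt (chromosome 8, 124556534 to 124569706) was even in the MYC-Gfi1 tumours, at 25.6 and 30.5 CPM, and low in the MYC-Otx2 tumours, at 2.68, 1.37 and 0.462 CPM. It was at 3.62, 8.02 and 94.8 CPM in the S100b-cell tumours and at 216, 0.349 and 17.4 CPM in the N1ICD tumours, the lowest of these from 1 count. All MYC-Otx2 libraries lay below all MYC-Gfi1 and all S100b-cell libraries. The differences were -4.23 ± 1.86 for MYC-Otx2 minus MYC-Gfi1, 4.56 ± 1.81 for S100b-cell minus MYC-Otx2 and 5.70 ± 1.89 for N1ICD minus MYC-Otx2 (SE), and none was called (edgeR adjusted p = 0.170, 0.104 and 0.0562). Without N1ICD replicate 1 the last was 2.56 (edgeR adjusted p = 0.273). Among other genes of the angiotensin system, the peptidases Lnpep and Enpep were called higher in N1ICD than in MYC-Otx2 tumours, at group means of 8.79 and 10.7 CPM against 1.45 and 0.0770 CPM (edgeR adjusted p = 0.0420 and 0.0445, the first lost without any 1 library of the N1ICD, MYC-Otx2 or S100b-cell tumours, at 0.0561 to 0.113, and the second without any 1 MYC-Otx2 library or S100b-cell replicate 1 or 3, at 0.0548 to 0.126). Enpep was at 28.9 CPM in N1ICD replicate 2, at 3.25 CPM in replicate 3 and at 0 counts in replicate 1. Of 9 other lipoprotein transport genes, Lrp2, the receptor megalin, which takes up both Apoe and Clu, was at 10.2, 11.2 and 26.7 CPM in the MYC-Otx2 tumours and at no more than 0.453 CPM in the other 8 libraries (edgeR adjusted p = 0.0136 against MYC-Gfi1, and 0.0576 without MYC-Otx2 replicate 3). Apod, another glial apolipoprotein, was lower than in MYC-Gfi1 tumours in both the N1ICD (-4.18 ± 0.86, edgeR adjusted p = 0.0176) and the MYC-Otx2 tumours (-3.52 ± 0.82, edgeR adjusted p = 0.0415). The first call was lost without N1ICD replicate 2 or 3 (edgeR adjusted p of 0.0507 and 0.0540). The second was lost without any 1 library of its groups, S100b-cell replicate 2 or N1ICD replicate 3 (edgeR adjusted p from 0.0505 to 0.118).

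Aldh1l1 (chromosome 6, 90486427 to 90600203) had the fewest counts of the 10 genes, 1 to 68 per library. It was at 1.63 and 3.34 CPM in the MYC-Gfi1 tumours and at 0.141, 0.498 and 1.502 CPM in the MYC-Otx2 tumours. It was at 1.29, 4.70 and 4.77 CPM in the S100b-cell tumours and at 15.4, 3.49 and 3.25 CPM in the N1ICD tumours. All N1ICD libraries and both MYC-Gfi1 libraries lay above the MYC-Otx2 libraries. The N1ICD difference from MYC-Otx2 was called (3.32 ± 1.00, SE, edgeR adjusted p = 0.0397). Without N1ICD replicate 1 it was 2.20 (edgeR adjusted p = 0.143), and it was also lost without MYC-Otx2 replicate 1 or 2 or S100b-cell replicate 2 or 3 (edgeR adjusted p from 0.0566 to 0.114). S100b-cell minus MYC-Otx2 gave 2.28 ± 0.96 and MYC-Otx2 minus MYC-Gfi1 -1.75 ± 1.03 (edgeR adjusted p = 0.119 and 0.283). Among other folate enzymes, Shmt1 and Mthfd1 were called higher in MYC-Otx2 than in MYC-Gfi1 tumours. Shmt1, a serine hydroxymethyltransferase, was at a mean of 347 CPM in MYC-Otx2, 60.6 CPM in N1ICD, 57.5 CPM in S100b-cell and 49.8 CPM in MYC-Gfi1 tumours (2.80 ± 0.53, SE, edgeR adjusted p = 0.0234 against MYC-Gfi1). That call was lost without MYC-Gfi1 replicate 2 or MYC-Otx2 replicate 1 or 3 (edgeR adjusted p from 0.0704 to 0.104). The Mthfd1 call was lost without MYC-Gfi1 replicate 2 or any 1 MYC-Otx2 or S100b-cell library (edgeR adjusted p from 0.0529 to 0.156).

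Groups whose libraries did not overlap were read against the same count over all genes. MYC-Otx2 libraries lay wholly below MYC-Gfi1 libraries in 5 of the 10 genes (Aqp4, Aldh1l1, Agt, Hopx and Clu), against 23.6% of all genes. S100b-cell libraries lay wholly below MYC-Gfi1 libraries in 2 genes, Slc1a2 and Aqp4, against 18.9%, and N1ICD libraries in 1 gene, Slc1a2, against 19.8%. Against MYC-Otx2, N1ICD libraries were wholly higher in 2 genes, Aldh1l1 and Clu (20.7% of all genes), and wholly lower in 1, Slc1a2 (20.8%). S100b-cell libraries were wholly higher than MYC-Otx2 libraries in 3 genes, Agt, Gja1 and Clu (28.6% of all genes), and wholly lower in 2, Slc1a2 and Slc1a3 (21.8%). N1ICD and S100b-cell libraries overlapped in all 10 genes, where 26.1% of all genes did not overlap. Hopx in MYC-Otx2 minus MYC-Gfi1 tumours was among the non-overlapping genes at a log2 fold change of -0.80 ± 1.35 (SE, edgeR adjusted p = 0.726).

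**Figure D3:**
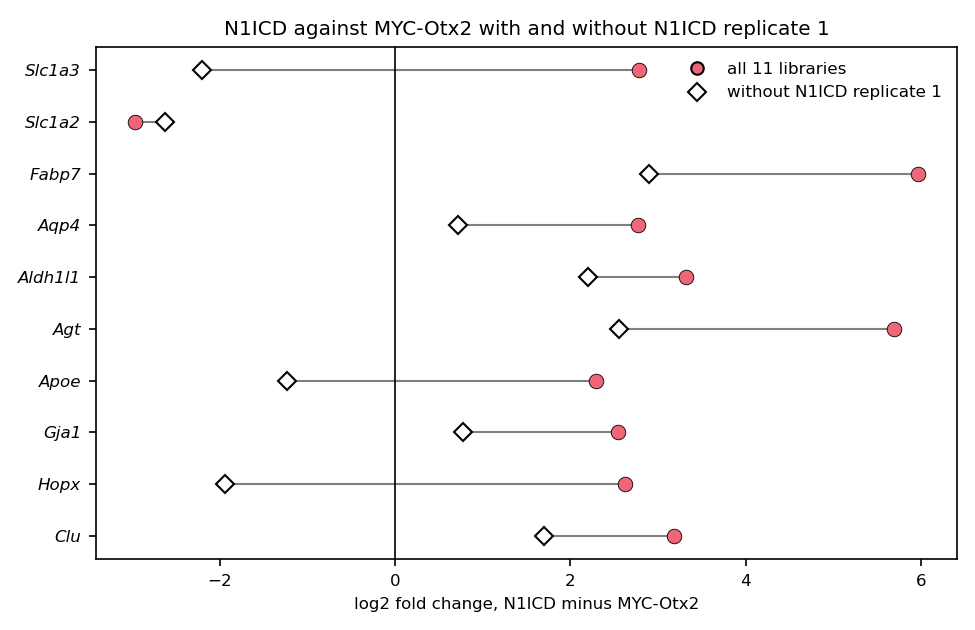
Log2 fold change of each gene, N1ICD minus MYC-Otx2, fitted with all 11 libraries (circles) and without N1ICD replicate 1 (diamonds). Slc1a3, Apoe and Hopx cross from above to below 0, to -2.21, -1.24 and -1.94, while Slc1a2 stays between -2.97 and -2.62.

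Of the 31 other astrocyte genes tested, 5 were called higher in N1ICD than in MYC-Otx2 tumours (Cbs, Ndrg2, Sparcl1, Fjx1 and Cst3) and 1 lower (Htra1), with a median of 1.78. Over all genes tested, 12% were called higher and 9.76% lower, with a median of 0.14. The list summed to 8023, 2779 and 1583 CPM in the N1ICD tumours and to 969 to 2274 CPM in the MYC-Otx2 tumours. The Ndrg2 call was lost without N1ICD replicate 1 (log2 change 2.04, edgeR adjusted p = 0.150), any 1 MYC-Otx2 library or any 1 S100b-cell library (edgeR adjusted p from 0.0537). In N1ICD minus MYC-Gfi1 the median was -0.40 and 1 gene, Fjx1, was called, higher, against a median of -0.01 and 11.5% called over all genes. In S100b-cell minus MYC-Gfi1 the median was -1.90 and 1 gene, Atp1b2, was called, lower, against a median of 0.01 and 4.35% called over all genes. The list summed to 1922 and 9637 CPM in MYC-Gfi1 replicates 1 and 2 and to 1144, 1476 and 1873 CPM in the S100b-cell libraries. These list medians are not given here without the libraries that stood apart. The Atp1b2 call was lost without MYC-Gfi1 replicate 2 or any 1 S100b-cell library (edgeR adjusted p from 0.0763 to 0.161). Cbs, an enzyme of cysteine synthesis, was at 4.10 to 7.05 CPM in the MYC-Otx2 tumours and at 30.0 to 217 CPM in the other 8 libraries, and the log2 change of MYC-Otx2 minus MYC-Gfi1 was -3.20 ± 0.55 (SE, edgeR adjusted p = 0.0172, and 0.0563 to 0.0754 without any 1 MYC-Otx2 library). Fjx1 was at 204, 101 and 88.0 CPM in the N1ICD tumours and at 11.6 to 41.8 CPM elsewhere. In S100b-cell minus MYC-Otx2 tumours 1 gene was called higher (Cbs) and 3 lower (Htra1, Ppap2b and Fjx1). Of all genes, 17.9% were called there and 7.89% were called lower. The Ppap2b and Fjx1 calls were lost without any 1 library of those groups, the Fjx1 call also without N1ICD replicate 2, and the Htra1 call without MYC-Otx2 replicate 3 or S100b-cell replicate 3 (edgeR adjusted p from 0.0533 to 0.148).

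The library that was highest in 9 of the 10 genes was not high in every astrocyte marker. In N1ICD replicate 1, Sox9, a glial transcription factor, was at 649 CPM and Sox2, a stem cell factor, at 247 CPM, against 2.09 to 99.8 and 3.24 to 77.9 CPM elsewhere. Gfap, the filament protein of mature astrocytes, was at 10.3 CPM there against 1.04 to 79.7 CPM elsewhere, and S100b at 11.1 CPM against 1.23 to 557 CPM. Of the 31 other astrocyte genes 12 had their highest level in that library, as did 8 of the 23 other radial and Bergmann glial genes. The same numbers, 12 and 8, had it in MYC-Gfi1 replicate 2. Of all genes tested, 13.5% were highest in N1ICD replicate 1 and 18.1% in MYC-Gfi1 replicate 2. Ttr, the transthyretin of choroid plexus, was at 4672 CPM in N1ICD replicate 1, 564 CPM in MYC-Gfi1 replicate 1 and at most 16.7 CPM elsewhere, and Foxj1, a ciliary factor of ependyma, at 54.0 CPM against at most 3.03 CPM. The part of choroid plexus or ependymal RNA in the levels of the 10 genes was not tested. In the S100b-cell tumours, S100b itself was at 1.23, 27.7 and 63.8 CPM, and Gfap at 1.04, 23.9 and 36.5 CPM. Replicate 1 of that group was also the lowest of the 11 libraries in 3 of the 10 genes, Slc1a2, Fabp7 and Aqp4. The same library was not low in Clu, at 151 CPM against 37.8 and 259 CPM in replicates 2 and 3. Nor was it low in Gja1, at 28.7 CPM against 10.6 and 38.2 CPM.

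**Figure D4:**
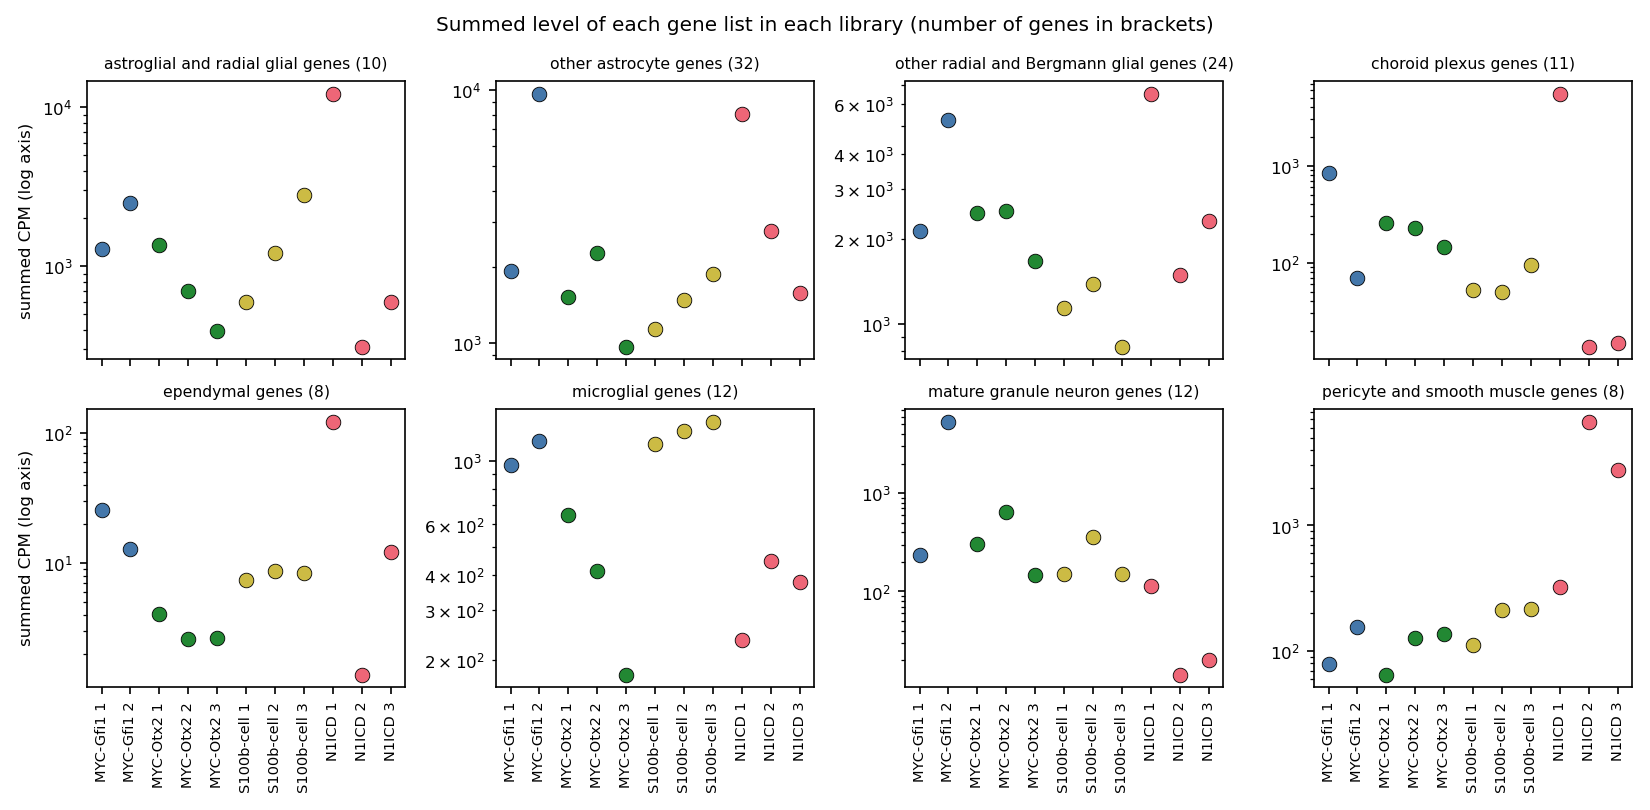
Summed CPM of the 10 genes and of 7 marker lists in each library, on log axes, coloured by group. N1ICD replicate 1 is the highest library for the 10 genes (12087 CPM), the radial and Bergmann glial, the choroid plexus (5467 CPM) and the ependymal lists, while MYC-Gfi1 replicate 2 is the highest for the other astrocyte (9637 CPM) and granule neuron lists.

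The 10 genes varied together in part. Over the 11 libraries the 45 pairs of genes had a median Pearson correlation of log2 CPM of 0.54, with 38 pairs above 0, and over the 10 libraries without N1ICD replicate 1 a median of 0.31. Slc1a2 was apart, with a median of -0.07 with the other 9 genes (0.22 without that library). Among 9772 genes with a group mean of at least 10 CPM, those whose log2 CPM followed each gene most closely over the 11 libraries included glial genes. Aqp4 was followed by Ncan, Mlc1 and Bcan (r = 0.93, 0.91 and 0.91), proteoglycan and membrane proteins of astroglia and their precursors. Stox2 was among the genes closest to Slc1a3 (r = 0.92). Cdh1 and Sox9 were among the genes closest to Agt (r = 0.92 each). Slc1a2 was followed by Klhdc8b, Cpe and Ptprt (r = 0.94, 0.93 and 0.93), of which Cpe is a peptide-processing enzyme of neurons and endocrine cells. These correlations share the same libraries, including the 1 that is highest for most of the genes. A gene high in that library alone could reach the minimum group mean through it. Those closest to Fabp7, the gene closest to Gja1 and those closest to Slc1a3 other than Stox2 did so, and these are not named. The values describe these 11 libraries alone.

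On the annotation (GENCODE M21, GRCm38, the assembly also called mm10) all 10 genes are protein coding, and 5 overlap another annotated gene. For Slc1a2, Aqp4, Aldh1l1 and Hopx at least 1 overlapping gene lies on the other strand, so that their counts are uncertain where the counting did not use strand, and Slc1a3 overlaps a gene model on its own strand. Fabp7, Agt, Apoe, Gja1 and Clu have no annotated overlap.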

How the data were processed

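Per the labels' protocols, TRIzol RNA from frozen tumours was made into QuantSeq forward libraries with molecular identifiers. The submitters' processing notes name STAR 2.4.1d, HTSeq 0.6.1 and mm10. No source used here gives the annotation, the strand setting or the use of identifiers. The authors deposited raw counts per gene symbol. Genes kept by filterByExpr were fitted over all 11 libraries by group with edgeR 4.0.16 in R 4.3.3 (TMM, robust quasi-likelihood, 7 residual degrees of freedom). Tests were two-sided, with Benjamini-Hochberg adjustment within each comparison. The SE is the log2 fold change over the square root of F. Libraries of a group differed by chi-square values of 21.3 to 132 per degree of freedom, so none was a copy. The 10 genes and 19 other lists (213 of 214 symbols found) were chosen with earlier results of these data known. All 10 genes are named. From each list, up to 4 called genes with the smallest p and 2 not called with the highest CPM could be named. Some genes of the lists are not reported here. Further marker genes were chosen after their values were seen. Alternatives were DESeq2 1.42.0, limma-voom (limma 3.58.1), other scaling and filters, only the groups compared, a replicate block and each library left out. Leaving out N1ICD replicate 1 and MYC-Gfi1 replicate 2 together was added after seeing the data.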

Additional observations from a re-analysis of the deposited data

How the results depend on the processing

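Counts of called genes were recomputed under 21 alternatives and are given in the order N1ICD minus MYC-Gfi1, S100b-cell minus MYC-Gfi1, MYC-Otx2 minus MYC-Gfi1, N1ICD minus MYC-Otx2, S100b-cell minus MYC-Otx2 and N1ICD minus S100b-cell. As reported, 1, 0, 0, 4, 1 and 0 of the 10 genes and 1, 1, 1, 6, 4 and 1 of the other astrocyte genes were called. DESeq2 called 2, 1, 2, 6, 4 and 1, and 4, 7, 6, 13, 7 and 8. Limma-voom called 0, 1, 0, 0, 1 and 0, and 1, 4, 2, 4, 5 and 1. With no low-count filter, 0, 0, 0, 1, 0 and 0, and 2, 1, 1, 5, 2 and 1 were called. With only the groups compared in the fit, 0, 0, 1, 3, 5 and 0, and 0, 0, 1, 5, 7 and 2 were called. RLE factors, and TMM without mitochondrially encoded genes, gave 1 call in place of 0 among the 10 genes for S100b-cell minus MYC-Gfi1 (Slc1a2). With both libraries that stood apart left out, 1, 0, 0, 2, 3 and 1, and 1, 0, 2, 6, 7 and 3 were called. Leaving out 1 library at a time gave ranges of 0 to 2, 0 to 1, 0 to 1, 0 to 4, 0 to 3 and 0 to 0 among the 10 genes, and 1 to 3, 0 to 2, 0 to 5, 5 to 8, 1 to 5 and 0 to 2 among the other astrocyte genes. Upper-quartile factors and a filter of at least 10 counts in 2 libraries left every one of these counts within 1.5 times. Correlations of the libraries' deviations from their group means ran from -0.16 to 0.17 over 15 same-number pairs, with 3 above 0.1. Over 30 pairs of unlike number they ran from -0.24 to 0.24, with 5 above 0.1. Within groups of 2 or 3 libraries such deviations mirror each other, so these values cannot settle whether replicate numbers pair the libraries. The fit with a replicate block called 1, 1, 0, 1, 1 and 0 of the 10 genes, and 1, 1, 1, 5, 3 and 1 of the other astrocyte genes.

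Single genes were followed in 33 pairs of a gene and a comparison, not in every pair of the 10 genes. Of the 693 refitted log2 fold changes of those pairs, 24 changed sign. Sign changes in other pairs are not counted, although the N1ICD medians against MYC-Gfi1 and S100b-cell changed sign without N1ICD replicate 1, as given above. Limma-voom turned Slc1a3, Apoe and Hopx to -1.39, -0.51 and -0.81 in N1ICD minus MYC-Gfi1, Slc1a3 and Hopx to -0.48 and -0.020 in N1ICD minus MYC-Otx2, and Hopx to -0.28 in N1ICD minus S100b-cell. With both libraries that stood apart left out, Slc1a3, Apoe and Hopx were -1.43, -1.85 and -2.63 against MYC-Gfi1 and -2.22, -1.24 and -1.95 against MYC-Otx2, and Slc1a3 and Hopx were -1.37 and -2.34 against S100b-cell. With 1 library left out, Slc1a3 ran from -3.95 to 3.55 against MYC-Gfi1, -2.21 to 3.37 against MYC-Otx2 and -1.35 to 4.23 against S100b-cell. Apoe ran from -2.17 to 1.91 and -1.24 to 3.21 against the first 2, and Hopx from -2.75 to 2.39, -1.94 to 3.20 and -2.33 to 2.81 against all 3. Slc1a2 in N1ICD minus S100b-cell ran from -0.23 to 0.85. The cause of these changes was not tested, apart from the fewer libraries. Depth limits Aldh1l1, with 1 to 68 counts per library.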
